A study of Mus musculus with 10 samples.

Results

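The tumour necrosis factor (TNF) superfamily is a set of cytokine ligands and the receptors that bind them. Its 43 members measured here, 18 ligands and 25 receptors, were taken from the 39017 genes of the count table by their symbols. The family was taken up because Tnf was already known to be lower in KPG1 than in KP in these libraries, so it was chosen by the measured Tnf levels of this comparison, and the values of the members between these groups are given as a description. The counts of members past a threshold further on come from the fit over all genes on the same libraries, so they restate that choice and support nothing.

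RNA was sequenced from 10 mouse lung tumour samples, 5 labelled KP and 5 labelled KPG1, to ask what loss of the glucose transporter Glut1 does to the transcriptome of lung adenocarcinoma. All came from C57BL/6 males that received the adenoviral vector Ad5SPC-Cre into the trachea, and tumours were collected 18 weeks and 6 days later. KPG1 mice are homozygous for a floxed allele of Slc2a1, the Glut1 gene. The KP controls carry the same tumour-initiating alleles, which are not reported here, and are called heterozygous for the floxed allele in one label and wild type in another. The SPC promoter limits Cre to cells that make surfactant protein C, so the other cells of these samples keep an intact Slc2a1. Tumours were macrodissected and dissociated, and leukocytes were depleted with magnetic beads against CD45, so each library is a bulk profile of the CD45- fraction. In such a bulk profile, fewer cells of a type and less RNA per cell cannot be told apart. The labels number the samples but do not say that each came from its own animal, so the p-values below measure the spread between these samples. The numbers are 11, 12, 15, 16 and 6 for KP 1 to KP 5 and 10, 1, 4, 5 and 9 for KPG1 1 to KPG1 5. All KP samples but KP 5 are thus numbered above all KPG1 samples. Sample number and group cannot be fully told apart.

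Depth ranged from 32427029 to 49534284 counts per library. Slc2a1 was at 78.8, 127, 123, 109 and 71.7 CPM (counts scaled to the size of the library after TMM normalization) in KP 1 to KP 5 and at 47.3, 66.8, 40.8, 51.3 and 44.3 CPM in KPG1 1 to KPG1 5. All KPG1 libraries were below all KP libraries, with a log2 fold change of -1.01 (SE 0.20, adjusted p = 0.0675 by limma). Epcam, which marks epithelium, was abundant at 433 ± 115 CPM in KP and 439 ± 55.6 CPM in KPG1 (mean ± SD, n = 5 each). Ptprc, which encodes CD45, was detected in every library at 5.21 CPM or more. Of the 16216 genes tested with limma, 10 rose and 18 fell in KPG1 at a threshold of 0.05 on the adjusted p.

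Most ligands of the family are made as membrane proteins that assemble into trimers, and several are released by proteases. Their receptors cluster on the target cell and recruit TRAF adaptors or death domain proteins, which lead to NF-kB and MAP kinase signalling or to cell death. In the lung, TNF is best known as an inflammatory cytokine of macrophages, while alveolar epithelium, endothelium and fibroblasts carry its receptors.

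Of the 43 members, 36 had counts high enough to be tested, 13 ligands and 23 receptors. At an adjusted p under 0.05 by limma, 2 members were past the threshold, Tnf and Tnfrsf23, both lower in KPG1. Over all genes the share past the threshold was 0.173%, of which 0.111% was lower and 0.0617% higher in KPG1. Groups did not overlap for 3 members, Tnf, Tnfrsf22 and Tnfrsf23, with all KPG1 libraries below all KP libraries, where the share over all genes was 2.81% in either direction, 1.76% in this one and 1.05% in the other. These shares are given beside the counts only and nothing is read from them, since the lower Tnf was the reason for choosing the family. The median log2 fold change was -0.02 over the members tested, 0.01 over the ligands and -0.04 over the receptors, against 0.02 over all genes. The sign was split evenly, with 18 members below 0 and 18 above, where 47.3% of all genes were below 0.

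**Figure D1:**
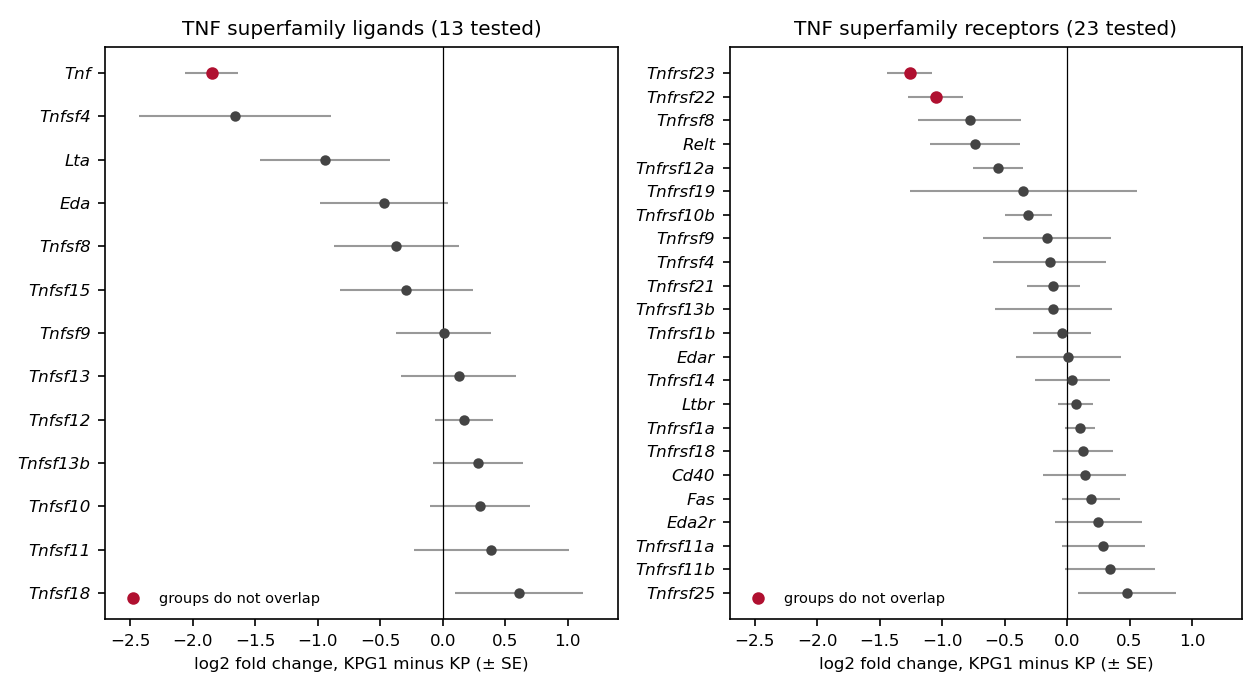
Log2 fold change between KPG1 and KP for the 36 members tested, ligands on the left and receptors on the right, where points are estimates from limma, bars are standard errors and red points mark members whose groups did not overlap. Tnf at -1.85, Tnfrsf23 at -1.26 and Tnfrsf22 at -1.05 are the red points, and the other members spread on both sides of 0.

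Tnf encodes the founding ligand of the family, a cytokine that drives inflammation through the receptors Tnfrsf1a and Tnfrsf1b. Its level was 16.8, 17.6, 21.7, 17.2 and 12.9 CPM in KP 1 to KP 5, from 560 to 803 counts. In KPG1 1 to KPG1 5 it was 4.28, 3.33, 6.09, 4.26 and 6.01 CPM, from 129 to 269 counts. The groups stood well apart, and the lowest KP library, KP 5, was above the highest KPG1 library, KPG1 3. The means were 17.2 ± 3.11 CPM in KP and 4.80 ± 1.21 CPM in KPG1 (SD, n = 5 each), which puts KPG1 at 27.8% of KP. The log2 fold change was -1.85 (SE 0.21), and it stayed between -1.97 and -1.73 when any 1 library was left out.

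Tnf lies on chr17:35199381-35202007 of mm10, on the minus strand, between Lta and Ltb, which encode the lymphotoxin subunits. Lta lies 1157 bases from Tnf, and its log2 fold change was -0.94 (SE 0.52). It was at 0.597 to 1.29 CPM in KP and at 0.109 to 0.931 CPM in KPG1, so the groups overlapped. Ltb, on the other side, had 2 to 29 counts and was not tested. Around these genes, within 100 kb, 17 other genes were tested and none was past the threshold, with log2 fold changes from -0.87 to 0.40 and adjusted p from 0.481 to 0.979 by limma. The 250 bases before the start of Tnf are printed because the family was chosen for Tnf. They are from RefSeq on GRCm38.p6 at chr17:35202008-35202257, minus strand, given 5′ to 3′, where capitals would mark a match to one of 4 motifs and none was found.
Tnf promoter: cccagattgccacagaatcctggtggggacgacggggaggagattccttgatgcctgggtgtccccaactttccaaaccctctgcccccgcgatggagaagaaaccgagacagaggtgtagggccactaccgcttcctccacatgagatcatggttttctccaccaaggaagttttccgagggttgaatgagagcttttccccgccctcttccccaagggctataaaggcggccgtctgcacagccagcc

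The motifs were searched on both strands as GGG and TTTCC with any 2 bases between them for NF-kB, TGANTCA for AP-1, TGACGTCA for the cyclic AMP response element and GCGGGGGCG for Egr factors. Among 32851 mouse promoters of the same length, 1.41%, 6.75%, 1.55% and 2.57% held these motifs, in this order. Promoters were found for 34 members, in 38 windows. The NF-kB letters occurred in those of Ltb, Tnfrsf25 and Tnfrsf9. The AP-1 letters occurred in those of Fas, Tnfrsf8, Tnfrsf9, Tnfsf13, Tnfsf13b and Tnfsf14. No window held the cyclic AMP response element, and the Egr letters occurred in the window of Tnfrsf12a only. A match is a run of letters and not a bound site. Only these letters within 250 bases were searched, so a window without a match may still hold or lie near a site.

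Tnfrsf23 and Tnfrsf22 encode decoy receptors for the ligand TRAIL, which lack the death domain of the signalling receptor Tnfrsf10b. Tnfrsf23 was at 108, 107, 118, 139 and 147 CPM in KP 1 to KP 5 and at 41.3, 59.8, 36.8, 58.6 and 68.1 CPM in KPG1 1 to KPG1 5. Tnfrsf22 was at 16.4, 11.8, 15.7, 21.7 and 14.1 CPM in KP and at 5.59, 8.38, 6.23, 8.43 and 10.7 CPM in KPG1, in the same order. Both genes were lower in every KPG1 library than in any KP library, and for both KPG1 5 was the highest of its group. The gap was narrow for Tnfrsf22, between 10.7 CPM in KPG1 5 and 11.8 CPM in KP 2. Mean Tnfrsf23 was 124 ± 18.3 CPM in KP and 52.9 ± 13.3 CPM in KPG1, or 42.7% of KP, with a log2 fold change of -1.26 (SE 0.18). Mean Tnfrsf22 was 15.9 ± 3.67 CPM in KP and 7.87 ± 2.03 CPM in KPG1, or 49.4% of KP, with a log2 fold change of -1.05 (SE 0.22).

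Both receptor genes lie side by side on chromosome 7 of mm10, on the minus strand, Tnfrsf22 at chr7:143634806-143649661 and Tnfrsf23 at chr7:143665809-143685872. Another receptor gene of the family, Tnfrsf26, which is not among the 43 members, lies 6083 bases beyond Tnfrsf22. It was at 31.9, 16.1, 23.1, 13.3 and 18.3 CPM in KP and at 7.76, 10.3, 11.8, 9.17 and 22.5 CPM in KPG1, so that KPG1 5 overlapped the KP range. Its log2 fold change was -0.78 (SE 0.31, adjusted p = 0.361 by limma). Tnfrsf13c and Tnfrsf17, the other family receptors outside the members, had at most 4 counts in a library and were not tested. Within 250 kb of the cluster, 10 further genes were tested and none was past the threshold, with log2 fold changes from -0.51 to 0.84. Of these, 7 were below 0, where 47.3% of all genes were below 0. In 2 of the 10, Cars at -0.48 and Nap1l4 at -0.16, the groups did not overlap either, with KPG1 below KP. The share over all genes in this direction was 1.76%.

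**Figure D2:**
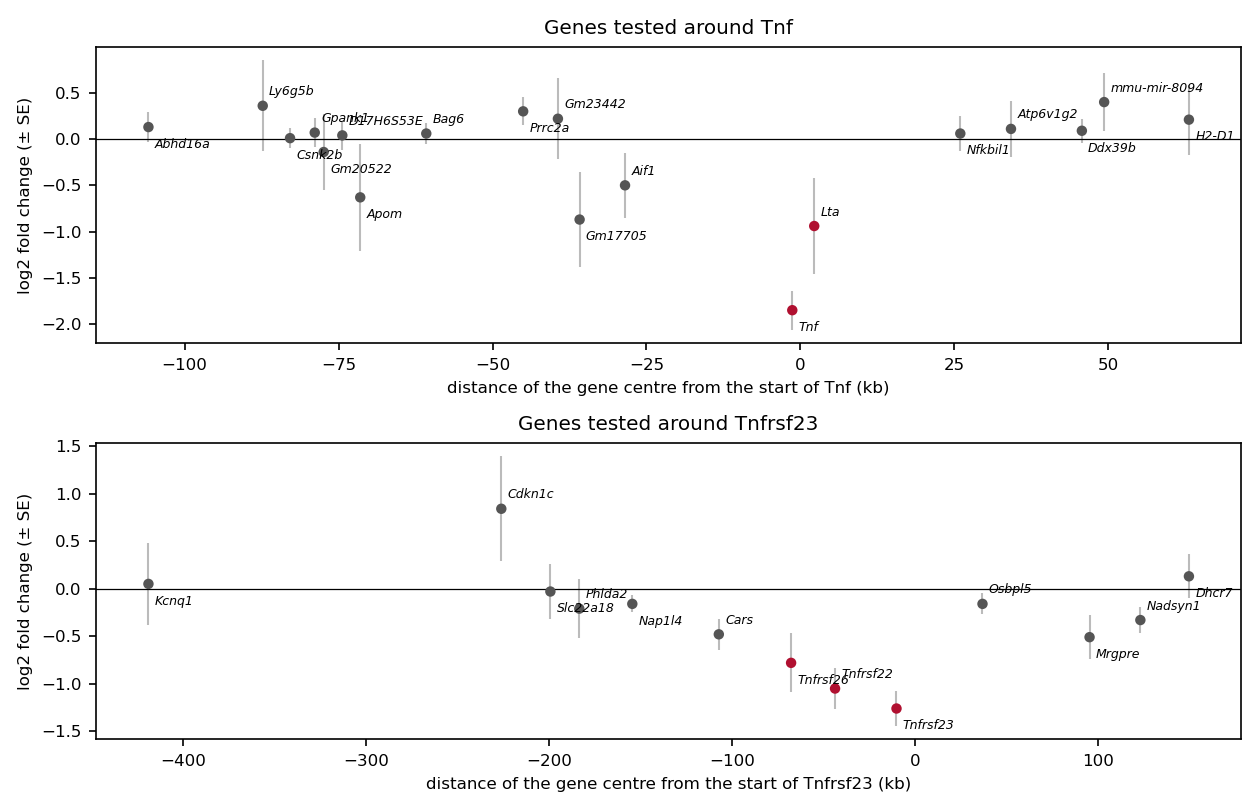
Log2 fold change between KPG1 and KP (± SE, by limma) of every gene tested around Tnf (upper panel) and around Tnfrsf23 (lower panel), plotted by the distance of the gene's centre from the start of that gene in kb, with family genes in red. Tnf at -1.85 lies beside Lta at -0.94, while Tnfrsf23, Tnfrsf22 and Tnfrsf26 lie side by side at -1.26, -1.05 and -0.78.

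Tnfrsf22 and Tnfrsf23 are close copies, and the sequences below are printed because reads from them may be assigned to either gene. Over 531 aligned coding bases they shared 481, or 90.6%, with an identical run of 102 bases, while Tnfrsf26 shared 60.1% with Tnfrsf22 and 56.6% with Tnfrsf23. Of all windows of 85 bases, the read length, 18.7% in the transcripts of Tnfrsf22 and 11.9% in those of Tnfrsf23 also occurred in transcripts of another gene. How the counting treated such reads is not given in the sources used here, so the values of both genes are uncertain to that extent. The first pair shows coding bases 421 to 510 of Tnfrsf22 and 391 to 480 of Tnfrsf23, where they do not differ. The second pair shows bases 104 to 193 and 74 to 163, where 16 bases differ and stand in capitals. All are from the GENCODE transcripts on GRCm38, 5′ to 3′.
Tnfrsf22, most alike: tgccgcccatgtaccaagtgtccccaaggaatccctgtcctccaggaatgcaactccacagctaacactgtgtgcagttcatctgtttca
Tnfrsf23, most alike: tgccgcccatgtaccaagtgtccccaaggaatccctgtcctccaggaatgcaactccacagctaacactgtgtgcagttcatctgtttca
Tnfrsf22, least alike: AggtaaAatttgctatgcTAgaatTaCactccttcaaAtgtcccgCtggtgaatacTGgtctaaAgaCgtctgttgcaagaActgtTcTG
Tnfrsf23, least alike: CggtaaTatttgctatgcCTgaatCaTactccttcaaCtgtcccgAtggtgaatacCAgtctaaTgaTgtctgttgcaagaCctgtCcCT

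The promoter of Tnfrsf23, of the same length and source at chr7:143685876-143686125 on the minus strand, is printed because this receptor, like Tnf, did not overlap between the groups. It held none of the 4 motifs. For Tnfrsf22, which did not overlap either, no promoter was found, so none was searched or printed.
Tnfrsf23 promoter: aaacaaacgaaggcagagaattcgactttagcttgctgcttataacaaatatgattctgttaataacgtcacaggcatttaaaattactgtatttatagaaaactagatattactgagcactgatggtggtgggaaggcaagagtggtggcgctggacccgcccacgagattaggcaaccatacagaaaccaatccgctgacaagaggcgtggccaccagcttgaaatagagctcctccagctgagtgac

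Tnfrsf12a encodes Fn14, the receptor of the ligand TWEAK, a protein induced by growth factors and injury. Its level was 95.1, 104, 172, 155 and 189 CPM in KP 1 to KP 5 and 105, 92.4, 77.8, 105 and 90.8 CPM in KPG1 1 to KPG1 5. KP 3, KP 4 and KP 5 were above every KPG1 library, while KP 1 and KP 2 lay within the KPG1 range. The log2 fold change was -0.55 (SE 0.20), from 143 ± 41.5 CPM in KP to 94.3 ± 11.5 CPM in KPG1. With Tnf, Tnfrsf22 and Tnfrsf23 it was 1 of 4 members with an unadjusted p under 0.05, all lower in KPG1, where the share over all genes was 11.6% in either direction and 6.31% lower. Its promoter at chr17:23677450-23677699, minus strand, is printed because it was the only one among the members with Egr letters, here a pair of overlapping matches in capitals from 54 to 40 bases before the start.
Tnfrsf12a promoter: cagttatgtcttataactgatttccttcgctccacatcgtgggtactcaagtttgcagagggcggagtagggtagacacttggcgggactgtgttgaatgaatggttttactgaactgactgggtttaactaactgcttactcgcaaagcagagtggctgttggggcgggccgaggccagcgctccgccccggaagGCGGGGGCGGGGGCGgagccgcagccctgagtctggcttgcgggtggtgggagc

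**Figure D3:**
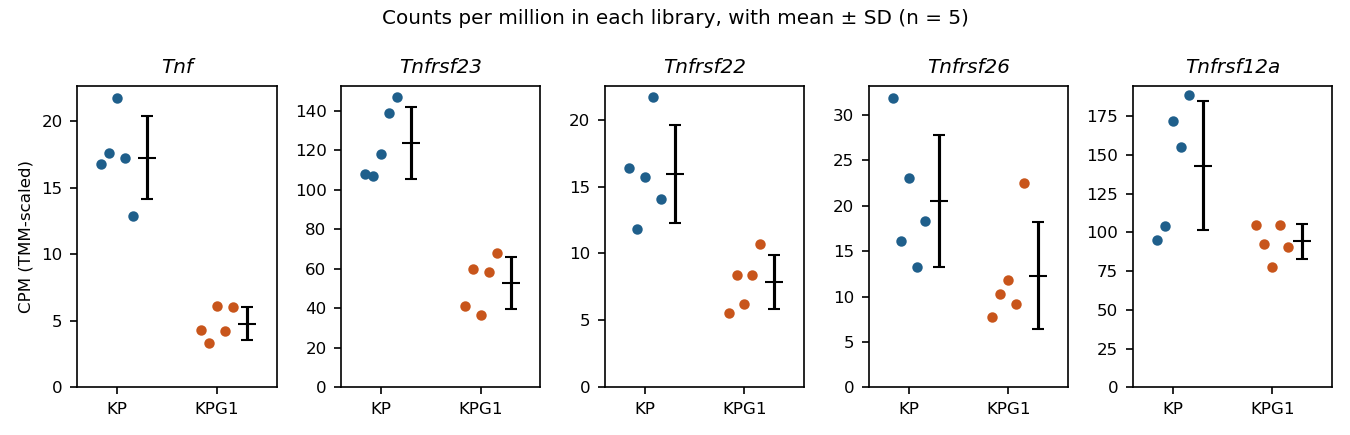
Level in CPM (TMM-scaled, linear axes from 0) of Tnf, Tnfrsf23, Tnfrsf22, Tnfrsf26 and Tnfrsf12a in each library of KP (blue) and KPG1 (orange), with the mean ± SD of 5 libraries beside the points. The groups do not overlap for Tnf, Tnfrsf23 and Tnfrsf22, while KPG1 5 at 22.5 CPM reaches into the KP range for Tnfrsf26 and KP 1 and KP 2 at 95.1 and 104 CPM reach into the KPG1 range for Tnfrsf12a.

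The receptors that Tnf binds were among the more abundant receptors and did not differ beyond their spread. Tnfrsf1a, the death domain receptor found on most cells, was at 123, 174, 170, 131 and 159 CPM in KP and at 163, 159, 153, 161 and 171 CPM in KPG1. The KPG1 libraries lay inside the KP range, with a log2 fold change of 0.10 (SE 0.12). Tnfrsf1b, the receptor found mainly on leukocytes and endothelium, was at 34.6, 80.5, 66.4, 67.1 and 70.8 CPM in KP and at 63.0, 74.7, 53.5, 68.5 and 44.7 CPM in KPG1. The groups overlapped, KP 1 stood below the rest of KP, and the log2 fold change was -0.04 (SE 0.23). Without KP 1 it was -0.24.

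To compare genes with each other, levels were expressed as RPKM, the CPM divided by the exon length in kilobases, averaged over all 10 libraries. Among the ligands Tnfsf9, the partner of the costimulatory receptor Tnfrsf9, was highest at 33.8 RPKM and exceeded Tnf, next at 6.72 RPKM, in 10 of 10 libraries. Tnf in turn was above Tnfsf12, the gene of TWEAK at 3.17 RPKM, in 6 of 10, namely in all 5 KP libraries and in KPG1 3, and was below it in the other 4 KPG1 libraries. From Tnf down to Tnfsf13 at 2.09 RPKM the mean log2 differences between neighbours were smaller than their SD. Tnfsf10, the gene of TRAIL, stood at 2.60 RPKM, and 6 of the 13 ligands tested were below 1 RPKM in every library. Tnfsf12 and Tnfsf13 are uncertain, since 45.4% and 55.1% of their 85-base windows also occur in the joint transcript Tnfsfm13 or an antisense gene.

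Tnfsf9 was at 17.9, 41.2, 62.6, 49.5 and 44.0 CPM in KP and at 72.3, 58.6, 29.4, 39.0 and 21.2 CPM in KPG1. It ranged widely within both groups, which overlapped, and its log2 fold change was 0.01 (SE 0.38). Tnfsf12 was at 2.75, 5.94, 4.21, 4.79 and 5.19 CPM in KP and at 4.81, 5.38, 3.85, 5.34 and 5.78 CPM in KPG1, with a log2 fold change of 0.17 (SE 0.23). KP 1 was the lowest library for both ligands.

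Among the receptors, Tnfrsf12a at 61.4 RPKM, Tnfrsf1a at 60.4 RPKM, Tnfrsf21 at 57.4 RPKM and Ltbr at 51.9 RPKM were not separated beyond their spread. Tnfrsf23 followed at 22.3 RPKM, below Ltbr in 10 of 10 libraries, and then Tnfrsf1b at 16.3 RPKM, which Tnfrsf23 exceeded in 6 of 10. These were the 5 KP libraries and KPG1 5, and in the other 4 KPG1 libraries Tnfrsf1b was higher. Below these stood the death receptors Tnfrsf10b at 6.68 RPKM and Fas at 6.04 RPKM with Tnfrsf11b, the soluble decoy of RANKL, at 5.87 RPKM. In all, 12 of the 23 receptors tested and 3 of the 13 ligands were above 1 RPKM in every library.

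Tnfrsf21, the gene of death receptor 6, was at 155, 211, 235, 275 and 368 CPM in KP and at 269, 243, 183, 205 and 214 CPM in KPG1, and its log2 fold change was -0.11 (SE 0.21). The KPG1 libraries lay inside the range of KP, whose lowest and highest libraries were KP 1 and KP 5. Ltbr, the lymphotoxin beta receptor of stromal and epithelial cells, was at 92.9, 131, 146, 96.9 and 134 CPM in KP and at 121, 125, 117, 125 and 132 CPM in KPG1. Its log2 fold change was 0.07 (SE 0.14), and KPG1 again lay inside the range of KP.

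**Figure D4:**
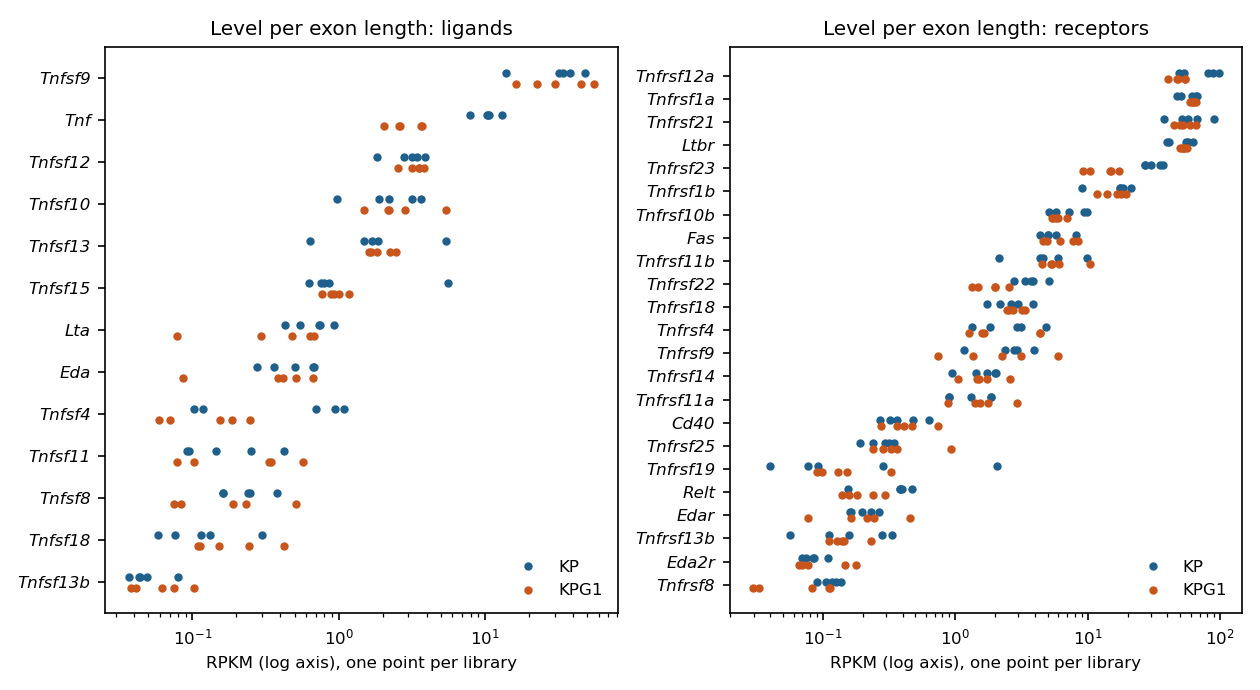
Level per exon length of the 36 members tested, in RPKM on a log axis, with 1 point per library (KP blue, KPG1 orange) and genes ordered by their mean over 10 libraries. Tnfsf9 leads the ligands at a mean of 33.8 RPKM, Tnfrsf12a, Tnfrsf1a, Tnfrsf21 and Ltbr lead the receptors at 51.9 to 61.4 RPKM, and the groups are apart for Tnf, Tnfrsf22 and Tnfrsf23.

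The other ligands and receptors showed no such separation. Of the 32 members tested besides Tnf, Tnfrsf22, Tnfrsf23 and Tnfrsf12a, 14 had a log2 fold change below 0 and 18 above, from -1.66 to 0.61, and in 25 it was smaller than its SE. Tnfsf4, the gene of OX40 ligand, had the lowest value at -1.66 (SE 0.77). The log2 fold change of Tnfsf4 was -2.04 by edgeR and -2.07 by DESeq2, below that of Tnf at -1.85 and -1.86 by the same tools. It was at 2.00, 0.220, 0.189, 1.75 and 1.29 CPM in KP and at 0.109 to 0.453 CPM in KPG1, so KP 1, KP 4 and KP 5 were above KPG1 and the other KP libraries were not. Its receptor Tnfrsf4 had a log2 fold change of -0.14 (SE 0.45). Tnfrsf8, the receptor CD30 of activated lymphocytes, had -0.78 (SE 0.41) from 4 to 20 counts, and its ligand Tnfsf8 had -0.37 (SE 0.50).

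The ligand TRAIL and its signalling receptor can be set beside the decoy receptors. Tnfsf10 had a log2 fold change of 0.30 (SE 0.40), and Tnfrsf10b, which carries the death signal of TRAIL, had -0.31 (SE 0.19). The means of Tnfrsf10b were 40.6 CPM in KP and 32.1 CPM in KPG1, with overlapping libraries. Fas, the receptor of Fas ligand, had 0.19 (SE 0.23), and Fasl itself had at most 6 counts in a library.

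Of the axis of bone and lymphoid development, Tnfsf11, the gene of RANKL, had a log2 fold change of 0.39 (SE 0.62), its receptor Tnfrsf11a had 0.29 (SE 0.33) and Tnfrsf11b had 0.34 (SE 0.36). The B cell survival factors Tnfsf13 and Tnfsf13b had 0.13 (SE 0.46) and 0.28 (SE 0.36), and Tnfrsf13b, which binds both, had -0.11 (SE 0.47). Each of these values was smaller than its SE.

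Among the costimulatory pairs, Tnfsf18 and its receptor Tnfrsf18 had log2 fold changes of 0.61 (SE 0.51) and 0.13 (SE 0.24). Tnfrsf9 had -0.16 (SE 0.51), Cd40 had 0.14 (SE 0.33) and Tnfrsf14, the receptor of the ligand LIGHT, had 0.04 (SE 0.30). Tnfrsf25, the receptor of the ligand encoded by Tnfsf15, had 0.48 (SE 0.39). The ectodysplasin receptors of skin appendage development, Edar and Eda2r, had 0.01 (SE 0.42) and 0.25 (SE 0.35). Tnfrsf19, an orphan receptor of embryonic and stem cells, varied most between libraries, with its highest CPM 51.5 times its lowest and a log2 fold change of -0.35 (SE 0.91). KP 4 at 9.70 CPM set that range, since no other library was above 1.55 CPM, and without KP 4 the log2 fold change was 0.54.

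Of the 7 members not tested, Cd70 had no count in any library, where 0 counts allow up to 3 counts per library, or 0.0656 to 0.0943 CPM. Cd40lg, the ligand of Cd40 on helper T cells, had 0 to 3 counts. Ngfr, the neurotrophin receptor, had 0 to 6. Cd27 had 2 to 14, Tnfsf14 had 0 to 14 and Ltb had 2 to 29. Most of these are lymphocyte genes, and the defining T cell gene Cd3e had 0 to 8 counts.

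In 4 members 1 library stood apart from its group. Tnfsf15, which encodes a ligand made by endothelium, was at 18.6 CPM in KP 5 and at 2.53, 2.89, 2.67 and 2.10 CPM in KP 1 to KP 4, with 2.58, 3.13, 2.97, 3.34 and 3.90 CPM in KPG1. Its log2 fold change was -0.29 (SE 0.53) and became 0.30 without KP 5. Eda, the gene of ectodysplasin, was at 0.590 CPM in KPG1 1 and at 3.46, 2.85, 2.63 and 4.57 CPM in KPG1 2 to KPG1 5, with 4.61, 3.43, 2.45, 1.89 and 4.52 CPM in KP. Its log2 fold change was -0.47 (SE 0.51) and became 0.03 without KPG1 1. Relt, an orphan receptor of lymphoid tissue, was at 0.505 CPM in KP 5 and at 1.54, 1.26, 1.29 and 1.25 CPM in KP 1 to KP 4, with 0.787, 0.517, 0.974, 0.457 and 0.591 CPM in KPG1. KP 1 to KP 4 were above all KPG1 libraries and KP 5 was not, and the log2 fold change of -0.74 (SE 0.36) became -1.05 without it. The remaining gene was Tnfrsf1b in KP 1, given above.

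How members varied together was described after removing the group means, over 10 libraries that share depth and composition. The closest pair was Ltbr and Tnfrsf1a at r = 0.95, genes on chromosome 6 that lie 35476 bases apart. Tnfrsf14 and Tnfsf9 followed at 0.89, and Tnfrsf9 reached 0.88 with Tnfsf8. For Tnf the member with the largest correlation was Tnfrsf4 at -0.74, and the largest positive one was Relt at 0.63. Across all genes tested, the 5 most like Tnf by the same measure were Zfr2 at 0.955, Clec4a2 at 0.945, Cd22 at 0.906, Arhgap15 at 0.890 and Siglece at 0.881. Their log2 fold changes were -0.21, -0.81, -0.42, -0.32 and -0.56, all smaller in size than that of Tnf. The correlations named here are the largest picked from many over few libraries, so values as large can arise by chance. None was tested.

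The proteins that carry the receptor signal into the cell were all tested, and none passed. Of 37 adaptors, death domain proteins and NF-kB components, 25 had a log2 fold change above 0 and 12 below, with a median of 0.04. By limma's unadjusted p under 0.05, 1 was higher and 1 was lower, where the share over all genes was 11.6% in either direction. The lower was Relb, a subunit of the alternative NF-kB pathway, at 31.1 ± 3.80 CPM in KP and 20.1 ± 3.91 CPM in KPG1 with groups that did not overlap (log2 fold change -0.64, SE 0.15, adjusted p = 0.153 by limma). The higher was Cflar, an inhibitor of caspase 8, with 0.32 (SE 0.12, adjusted p = 0.33 by limma). Next by p came the kinases Map3k7 and Chuk, which relay the receptor signal, with 0.31 and 0.28 (adjusted p = 0.434 and 0.471 by limma). DESeq2 put 1 of the 37 past the threshold, where over all 16216 genes it put 125 higher and 423 lower past it.

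Of 13 genes that shed the ligands or control Tnf mRNA, none passed either, with 7 above 0, 6 below and a median of 0.06. By limma's unadjusted p under 0.05, 1 was higher and 2 were lower. The share over all genes was 11.6% in either direction and 6.31% lower. DESeq2 put 2 of the 13 past the threshold, where over all 16216 genes it put 125 higher and 423 lower past it. Adam17, the protease that releases TNF from the membrane, had a log2 fold change of 0.48 (SE 0.15, adjusted p = 0.26 by limma). Zfp36, whose protein promotes decay of Tnf mRNA and is itself an early response gene, had -1.64 (SE 0.44, adjusted p = 0.196 by limma). Zc3h12a, a nuclease that cuts cytokine mRNAs, had -0.77 (SE 0.19, adjusted p = 0.153 by limma) with groups that did not overlap. Khsrp, another decay factor, had 0.24 (SE 0.11, adjusted p = 0.437 by limma).

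A list of 40 genes that TNF is known to induce was measured in full. F3, the gene of tissue factor, was the 1 member past the threshold, and it fell from 389 ± 101 CPM in KP to 171 ± 24.6 CPM in KPG1 (log2 fold change -1.16, SE 0.17, adjusted p = 0.0304 by limma). Its libraries were at 349, 327, 325, 380 and 565 CPM in KP and at 178, 187, 135, 197 and 159 CPM in KPG1. The log2 fold change was below 0 in 35 of the 40, with a median of -0.45 against 0.02 over all genes, where 47.3% were below 0. By unadjusted p 12 were lower and 1, Lcn2, was higher, against 6.31% of all genes lower by this measure, and 39 did not pass. No gene of the list passed without KP 1, KP 3, KP 4 or any single KPG1 library, while 6 passed without KP 5. The calls over all genes were also most numerous without KP 5. Many of these genes also respond to stimuli other than TNF.

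Early response genes were set beside the members as well. Of 32 immediate-early and dissociation-induced genes, 4 were past the threshold, and Fosb, Ier3, Klf4 and Maff fell with log2 fold changes of -1.82 (SE 0.30), -1.07 (SE 0.15), -1.39 (SE 0.22) and -1.24 (SE 0.16) and adjusted p of 0.0464, 0.0240, 0.0378 and 0.0233 by limma. The value was below 0 in 30 of the 32, with a median of -1.07, and 23 were lower by unadjusted p, against 47.3% and 6.31% of all genes. Without KP 5, 17 passed, without KPG1 1 or KP 2 there were 2, and without KPG1 5 there was 1. Without KP 1, KP 3, KP 4, KPG1 2, KPG1 3 or KPG1 4 none did. Calls over all genes moved as well, from 3 to 71 higher and 1 to 223 lower, the most without KP 5. The mean log2 CPM of the list was 7.86, 7.80, 7.80, 7.52 and 6.87 in KP and 6.98, 6.38, 6.42, 6.12 and 6.87 in KPG1. KP 1 to KP 4, the samples with the highest sample numbers, were above all other libraries, and KP 5 lay inside the KPG1 range. With the level of the list as a covariate, a setting chosen after seeing the data, the log2 fold change of Tnf was -1.41, that of Tnfrsf23 was -1.57 and that of Tnfrsf12a was -0.96. Whether the early response contributes to the lower Tnf was not tested.

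Several members are known as leukocyte genes, so markers of the leukocytes left after depletion were set beside them. The mean log2 CPM over 12 pan-leukocyte genes differed by -0.18 between the groups (2.17 ± 0.51 in KP, 1.99 ± 0.36 in KPG1, SD, n = 5 each, two-sided exact permutation p = 0.54, adjusted p = 0.689 over 11 marker lists). All 12 genes were detected, their summed level was 55.5 to 125 CPM in KP and 60.7 to 91.9 CPM in KPG1, and none was past the threshold. KPG1 3, with a list level of 2.50, had 6.09 CPM of Tnf, and KP 4, with 1.75, had 17.2 CPM. Within each group, the library with the highest list level had the most Tnf and that with the lowest the least. In KP these were KP 3 at 2.96 with 21.7 CPM and KP 5 at 1.68 with 12.9 CPM. In KPG1 they were KPG1 3 and KPG1 2, the latter at 1.66 with 3.33 CPM. KPG1 5 went the other way, at 1.69 with 6.01 CPM. The 16 macrophage and monocyte genes, which cover the cells best known for TNF, all had log2 fold changes below 0 with a median of -0.28, and their mean differed by -0.27 (exact permutation p = 0.333, adjusted p = 0.689). Their summed level was 165 to 309 CPM in KP and 151 to 254 CPM in KPG1. With the pan-leukocyte level as a covariate the log2 fold change of Tnf was -1.78. The part of leukocytes in the lower Tnf was not tested.

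The neutrophil list had the largest difference of the 11, at -0.62 (exact permutation p = 0.0952, adjusted p = 0.689). Of its 8 genes 7 were tested, 6 had a log2 fold change below 0 and none was past the threshold. Their summed level was low in both groups, at 7.75 to 25.1 CPM in KP and 7.39 to 22.1 CPM in KPG1. The gene Cxcr2 was at 0.390 to 11.2 CPM in KP and at 1.22 to 19.5 CPM in KPG1. In KPG1 4 it made up most of the sum, while S100a8 was lowest there, at 0.200 CPM. S100a8, a defining neutrophil gene, had 7 to 160 counts. S100a8 and S100a9 had log2 fold changes of -1.84 (SE 0.50) and -1.98 (SE 0.46), near that of Tnf at -1.85, and all KPG1 libraries were below all KP libraries for both (adjusted p = 0.205 and 0.142 by limma). Csf3r had -1.09 (SE 0.37) and Cxcr2 had 1.23 (SE 0.88), with overlapping groups. Mmp8, Il1r2 and Retnlg had -0.49 (SE 0.48), -0.34 (SE 0.47) and -0.19 (SE 0.47), also with overlapping groups. The mean log2 CPM of the neutrophil list was -0.67, 0.34, 0.95, 0.25 and -0.48 in KP 1 to KP 5. It was -0.53, -0.68, -0.45, -0.85 and -0.21 in KPG1 1 to KPG1 5. With this level as a covariate, also chosen after seeing the data, the log2 fold change of Tnf was -1.61. The part of neutrophils in the lower Tnf was not tested.

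The other marker lists differed by -0.17 to 0.38, with exact permutation p from 0.135 to 0.833 and adjusted p of 0.689 or 0.833. They covered dendritic, T, NK, B and mast cells, endothelium, fibroblasts with mural cells, and epithelium with alveolar type 2 cells. All 12 endothelial genes and all 11 fibroblast and mural genes tested had log2 fold changes above 0, with medians of 0.29 and 0.41. The epithelial list had 8 above and 4 below 0, a median of 0.23, and it was split. The keratins Krt8, Krt18 and Krt19 had log2 fold changes of -0.67, -0.87 and -0.79 (adjusted p = 0.0699, 0.0501 and 0.199 by limma), and Krt8 and Krt18 did not overlap between the groups. Of the alveolar type 2 genes, Sftpc, Lamp3, Abca3 and Slc34a2 had 1.22, 1.25, 0.97 and 1.00 (adjusted p = 0.272, 0.441, 0.332 and 0.431 by limma). Abca3 was higher in every KPG1 library than in any KP library. Sftpb and Sftpa1 did not share this, since their KPG1 libraries lay inside the KP range. Sftpb was at 8050 to 24600 CPM in KP and 13400 to 20500 CPM in KPG1. Sftpa1 was at 2760 to 17100 CPM in KP and 5920 to 11500 CPM in KPG1. The list had a summed level of 23000 to 63200 CPM in KP and 49600 to 87000 CPM in KPG1. The smallest two-sided p that 5 against 5 libraries can give is 0.00794. The part of these cell types in the lower Tnf, Tnfrsf22 and Tnfrsf23 was not tested.

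**Figure D5:**
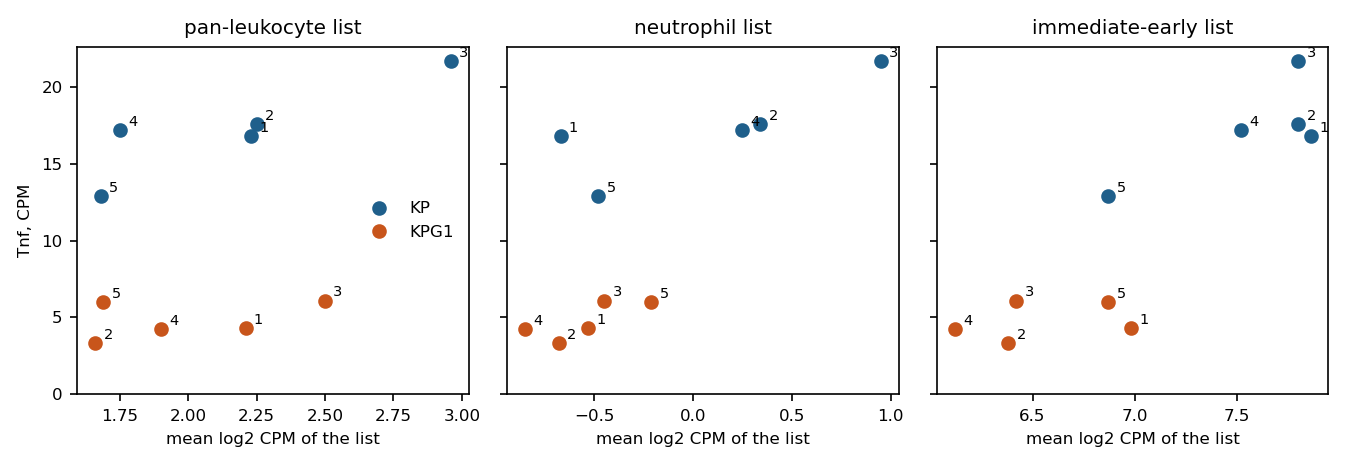
Tnf in CPM (vertical axis) against the mean log2 CPM of the pan-leukocyte, neutrophil and immediate-early lists (horizontal axes) in each library, KP in blue and KPG1 in orange, with the replicate number beside each point. Tnf runs from 12.9 to 21.7 CPM in KP and from 3.33 to 6.09 CPM in KPG1. The list levels of the groups overlap in the pan-leukocyte and neutrophil panels. In the immediate-early panel KP 5 is the only KP library inside the KPG1 range.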

How the data were processed

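RNA of the CD45- fraction of 10 tumours was made into libraries with a stranded mRNA kit and read from one end at 85 bases. The study's methods give HISAT2 as the aligner and mm10 as the build, and the submitters' processing notes name bcl2fastq 2.17, cutadapt 1.4.2 and featureCounts 1.4.4. For cutadapt the study's methods give a different version from that of the notes. The strand setting and annotation release are not given in the sources used here. The authors deposited whole-number counts per gene for 39017 genes, not normalized, in a joint table and in single tables, and all 390170 values were equal. They also deposited a log2 table, made by the authors with TMM factors and voom, which was not used for tests.

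From the counts, genes were kept with filterByExpr of edgeR 4.0.16, scaled by TMM and fitted with voom and limma 3.58.1 in R 4.3.3, with the group as the only term. P-values were adjusted by Benjamini-Hochberg over 16216 genes and called at 0.05. A filter on TPM, as in the study, was an alternative. Log2 CPM used a prior count of 2, and RPKM used union exon lengths of the GENCODE annotation on GRCm38. Tnfrsf22 has a pair of rows in the count table, and the one at 0 in every library was not used. Scripts were tested on simulated counts. Alternatives were other tests (edgeR quasi-likelihood, DESeq2 1.42.0), factors, filters, quality weights, a replicate block, covariates and leaving out each library. A gene with 0 counts could have held up to 3 in that library, for counting error only.

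The members and all lists were chosen with earlier results of these data known. Values per library were printed for Tnf, for members with an unadjusted p under 0.05 or groups that did not overlap, for the 3 ligands and 5 receptors with the highest mean RPKM, for both Tnf receptors and for members with a library apart. Of each pathway list, genes past the threshold were named, or else the 4 with the smallest p. Per-library values of Lta, Tnfsf4 and Tnfrsf26, and values of Tnfrsf19, Cd3e, Epcam and Ptprc, were added after their values were seen. The same holds for the values of the neutrophil genes, of keratins and of alveolar type 2 genes.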

Additional observations from a re-analysis of the deposited data

Results flagged for a closer look

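A library was taken as standing apart where its gap to the nearest of the other 4 made up more than 0.71 of the range of its group of 5. Among the 104 groups examined, 6 met this, and chance gives about 1 in 20, or 5.2. Values are log2 CPM.

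Tnfsf15 was at 4.22 in KP 5 and at 1.11 to 1.56 in the other KP libraries. Relt was at -0.85 in the same library and at 0.38 to 0.67 in the others, so KP 5 was high for one member and low for the other. Tnfrsf1b was at 5.12 in KP 1 and at 6.05 to 6.33 in the other KP libraries. Eda was at -0.64 in KPG1 1 and at 1.42 to 2.21 in the other KPG1 libraries. The T cell list was at -1.43 in KP 3, against -2.52 to -2.21, and the list of mast cells and basophils was at -1.70 there, against -2.67 to -2.42. KP 3 also had the highest Tnf, at 21.7 CPM.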

How the results depend on the processing

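The log2 fold changes of Tnf, Tnfrsf22 and Tnfrsf23 stayed below 0 in every setting, from -1.97 to -1.41, -1.17 to -0.91 and -1.57 to -1.13. Of 767 recomputed fold changes of members, 740 moved by less than the spread between replicates. Of the other 27, 22 arose with the immediate-early level as a covariate and 5 with sample number. The sign changed in 13 of 36 members with the former, where Tnfrsf9 reached 1.88 and Tnfsf10 reached 1.95, and in 9 with the latter.

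The calls depended far more on the setting, and where no cause is given it was not tested. Members past the threshold, 2 in the reported fit, were 0 with the replicate block, with sample number as a covariate and with the immediate-early or neutrophil level as a covariate. Leaving out each library gave 0 to 3, with 0 without KPG1 4, 1 without KP 1, KP 3, KP 4, KPG1 1, KPG1 2 or KPG1 3, and 3 without KP 5. Over all genes, 10 higher and 18 lower became 4 and 1 with the replicate block, 4 and 4 with sample number, 3 and 2 with the immediate-early level, 3 and 1 with the neutrophil level, 51 and 177 with quality weights and 125 and 423 by DESeq2. The lower genes were 29 by edgeR, 31 without a filter on low counts and 29 with a mean TPM of at least 20. Leaving out each library gave 3 to 71 higher and 1 to 223 lower, the most without KP 5. The same replicate number did not mark a pair, since the correlations of deviations were -0.12, 0.08, 0.06, 0.06 and -0.16, so the block result says nothing of a weaker effect.

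Of the TNF-induced targets 1 passed, against 9 by DESeq2, 5 with quality weights, 0 with the block, sample number or the immediate-early or neutrophil level, and 0 to 6 without a library. Of the immediate-early list 4 passed, against 18, 19, 0 and 0 to 17 in the same order. Of the sheddases and mRNA regulators 0 passed, against 2 by DESeq2, 2 with weights and 0 to 1 without a library. Of the adaptors 0 passed, against 1 by DESeq2 and 0 to 1 without a library. The pan-leukocyte difference of -0.18 ranged from -0.31 to 0.01 without a library and turned to 0.01 without KP 3. Of the 18 ligands, 5 had too few counts to be tested.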
